A study of Rattus norvegicus with 12 samples.

Results

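Histone deacetylases (HDACs) remove acetyl groups from lysines of histones and other proteins. The 10 HDAC genes described here were taken by their symbols from the deposited tables, which hold 18469 genes. They are Hdac1, Hdac2, Hdac3 and Hdac8 of class I, Hdac4, Hdac5, Hdac7 and Hdac9 of class IIa, Hdac6 of class IIb and Hdac11, the sole member of class IV. RNA was sequenced from neonatal rat ventricular myocytes (NRVMs), the heart muscle cells of newborn Sprague-Dawley rats in primary culture, in 12 libraries from 4 groups with 3 biological replicates each. All cells had been transfected with an siRNA and kept in medium with insulin, transferrin and selenium. The siNeg group received a negative control siRNA. The siNeg.PE group received the same siRNA and, 12 h later, phenylephrine (PE), an α1-adrenergic agonist that makes cardiomyocytes grow, for 36 h. The siSlc25a26 group received an siRNA against Slc25a26, the mitochondrial carrier of S-adenosylmethionine, and the siSlc25a26.PE group received that siRNA and then PE on the same schedule. These times come from the labels. The study's methods give a longer schedule and describe another siRNA. Hearts of many newborn animals are usually pooled for such cultures, and neither the number of animals nor the origin of each replicate is given in the sources used here.

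Class I HDACs are mainly nuclear, and Hdac1 and Hdac2 work as the catalytic subunits of the NuRD, Sin3, CoREST and MiDAC complexes, while Hdac3 works in a separate corepressor complex. Class IIa HDACs have little catalytic activity of their own. In cardiomyocytes they bind MEF2 transcription factors and repress their targets until kinases such as CaMKII and protein kinase D phosphorylate them, after which 14-3-3 proteins hold them in the cytoplasm. Hdac6 acts mostly in the cytoplasm on tubulin and other proteins, and Hdac11 removes long fatty acyl groups from lysines. RNA levels, the quantity measured here, say nothing of where these proteins sit or of how active they are.

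The siRNA target was examined first. Slc25a26 lay between 29.3 and 33.2 normalised CPM (counts scaled to the library total with edgeR's TMM factors) in siNeg and between 14.7 and 15.8 in siSlc25a26, a log2 fold change of -1.08 (edgeR quasi-likelihood test, Benjamini-Hochberg adjusted p = 1.08e-05). Under PE it lay between 86.2 and 113 in siNeg.PE and between 98.8 and 106 in the libraries labelled siSlc25a26.PE, and the log2 fold change was -0.01 (edgeR adjusted p = 0.969). The 3 libraries labelled siSlc25a26.PE thus show no lower target RNA than their comparators, and every direction drawn from them below is that of libraries so labelled. The summed FPKM (fragments scaled by gene length and library total) of 10 interferon-responsive genes was 77.5 to 96.2 in siNeg and 52.3 to 62.4 in siNeg.PE, but 4650 to 4980 in siSlc25a26 and 2390 to 2710 in siSlc25a26.PE. The summed FPKM of 8 cardiomyocyte markers was 10300 to 11300 in siNeg and 9980 to 11300 in siSlc25a26, below the 13100 to 13600 of siNeg.PE and the 12000 to 13100 of siSlc25a26.PE. That of 8 fibroblast markers was 4410 to 4770 in siNeg, 2420 to 2460 in siNeg.PE, 2620 to 2920 in siSlc25a26 and 1590 to 1810 in siSlc25a26.PE. Smooth muscle and pericyte markers summed to 2570 to 2770 in siNeg and to 1120 to 1470 in the other groups, leukocyte markers to 92.2 to 112 in siNeg and 31.2 to 60.1 in the others, and endothelial markers to at most 8.13 in any library. Markers of cycling cells summed to 91.6 to 113 in siNeg.PE and to 54.2 to 75.1 in the other groups. None of the 8 markers in any of these lists was at 0 in every library. A sum can hide genes that move the other way. In siSlc25a26 against siNeg, 0 smooth muscle markers passed as higher and 7 as lower (23.3% and 21.7% of all genes). For cardiomyocyte markers these counts were 0 and 3. In siSlc25a26.PE against siNeg.PE, 3 smooth muscle markers were higher and 4 lower (20.1% of all genes each). PE with siSlc25a26 raised 3 and lowered 2 of them (26.4% and 26%). In bulk RNA, fewer cells of a type and less RNA per cell cannot be told apart, and the part of these marker and interferon shifts in the HDAC values below was not tested. Total counts per library ranged from 24770972 to 28709049, and HDAC counts per library from 117 for Hdac11 to 4881 for Hdac5.

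The sequence just upstream of the gene start is shown for 6 of the HDAC genes. Hdac1, Hdac2 and Hdac4 had higher RNA in siSlc25a26 than in siNeg and in the libraries labelled siSlc25a26.PE than in siNeg.PE, Hdac7 had lower RNA with PE, Hdac9 had a PE response that differed between the siRNAs, and Hdac5 had the highest RNA of the class IIa genes, whose products bind MEF2 factors. RefSeq promoter sequences (build GRCr8) matched 9 of the 10 genes by symbol; Hdac11 had no entry. Each line gives the 250 bases before the annotated start, read 5′ to 3′ on the gene's strand, with matches to the searched motifs in capitals. The motifs were searched on both strands.
Hdac1 (chr5:147165388-147165637, minus strand): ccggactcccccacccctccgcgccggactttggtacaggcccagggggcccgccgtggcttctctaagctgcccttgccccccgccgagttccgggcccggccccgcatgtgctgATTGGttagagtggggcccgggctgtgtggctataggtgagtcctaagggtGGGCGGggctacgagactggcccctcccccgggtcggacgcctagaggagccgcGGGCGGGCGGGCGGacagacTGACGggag
Hdac2 (chr20:42102877-42103126, plus strand): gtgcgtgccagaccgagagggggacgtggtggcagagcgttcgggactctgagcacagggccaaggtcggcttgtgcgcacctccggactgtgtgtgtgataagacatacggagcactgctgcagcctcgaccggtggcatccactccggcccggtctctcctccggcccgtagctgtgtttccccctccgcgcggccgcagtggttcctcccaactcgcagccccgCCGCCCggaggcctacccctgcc
Hdac4 (chr9:100197638-100197887, minus strand): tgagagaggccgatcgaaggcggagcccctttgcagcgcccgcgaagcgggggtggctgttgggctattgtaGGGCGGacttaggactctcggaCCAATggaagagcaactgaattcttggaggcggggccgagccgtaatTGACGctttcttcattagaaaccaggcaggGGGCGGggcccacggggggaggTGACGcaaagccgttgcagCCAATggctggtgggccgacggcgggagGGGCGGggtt
Hdac5 (chr10:87688055-87688304, minus strand): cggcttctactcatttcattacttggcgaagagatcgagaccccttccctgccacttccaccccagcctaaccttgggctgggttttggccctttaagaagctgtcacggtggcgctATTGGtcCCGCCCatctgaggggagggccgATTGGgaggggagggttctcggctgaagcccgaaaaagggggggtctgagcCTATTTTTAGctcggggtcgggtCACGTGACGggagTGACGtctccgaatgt
Hdac7 (chr7:130841018-130841267, minus strand): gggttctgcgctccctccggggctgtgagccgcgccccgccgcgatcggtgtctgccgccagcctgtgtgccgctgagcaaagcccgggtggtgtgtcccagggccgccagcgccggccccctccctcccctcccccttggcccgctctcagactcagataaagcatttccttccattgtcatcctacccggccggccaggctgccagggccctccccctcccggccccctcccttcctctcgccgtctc
Hdac9 (chr6:57052572-57052821, minus strand): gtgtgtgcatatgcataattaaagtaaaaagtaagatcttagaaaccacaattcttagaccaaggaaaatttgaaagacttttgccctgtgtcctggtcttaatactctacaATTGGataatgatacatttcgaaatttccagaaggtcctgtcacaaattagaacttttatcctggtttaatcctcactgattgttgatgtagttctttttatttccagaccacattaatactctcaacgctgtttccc

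The GC box, searched as GGGCGG, was in 6 of the 9 HDAC promoters and in 30.5% of 33469 RefSeq promoters of the same length. Hdac1 held 4 matches, of which the 3 nearest the start overlap one another, Hdac4 held 3 and Hdac2 held 1. The CCAAT box, searched as CCAAT, was in 5 of 9 and in 34% of all. The core of the cyclic AMP response element, searched as TGACG, was in 4 of 9, namely those of Hdac1, Hdac4, Hdac5 and Hdac8, and in 18.2% of all. Hdac5 was the member with a match to the MEF2 site, which 2.96% of all promoters hold, and with an E-box, searched as CACGTG, which 5.59% hold and which shares bases with 1 of its TGACG matches. The STAT site, searched as TTCNNNGAA, was in 1 of 9, that of Hdac3, and in 7.67% of all. No match to the interferon response core GAAANNGAA (8.12% of all), the TATA box TATAAA (12.9%) or the CArG box (1.5%) was in the 9 windows. GC content was 72.4% for Hdac1 and 72% for Hdac7, against 34.4% for Hdac9 and 38.8% for Hdac8. The window of Hdac7 held none of the searched letters. A match describes letters in 1 annotated window and not a bound site.

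HDAC levels were compared between genes on the FPKM scale, which is per length. In siNeg the order was Hdac5 (52.1 ± 0.64 FPKM, SD, n = 3), Hdac2 (38.1 ± 3.16), Hdac3 (34.6 ± 0.373), Hdac1 (23.3 ± 0.347), Hdac7 (13.4 ± 0.396), Hdac11 (9.74 ± 0.768), Hdac6 (9.3 ± 0.448), Hdac8 (6.51 ± 0.606), Hdac9 (5 ± 0.688) and Hdac4 (2.19 ± 0.251). The libraries of Hdac2 and Hdac3 overlapped in siNeg, as did those of Hdac11 and Hdac6, and no other neighbours did. Hdac5, a signal-responsive repressor of MEF2 targets, also headed the order in siNeg.PE (46.3 ± 1.58) and in siSlc25a26 (54.4 ± 0.437). In siSlc25a26.PE the first 2 places were held by Hdac2 (44.8 ± 1.63) and Hdac5 (39.5 ± 3.81), whose libraries overlapped. Hdac4 was lowest in 3 groups, and in siSlc25a26.PE Hdac11 (2.08 ± 0.454) and Hdac4 (2.47 ± 0.0896) overlapped at the bottom. Hdac1 stood below Hdac3 in siNeg and siNeg.PE, overlapped it in siSlc25a26 (32 ± 1.68 against 32.9 ± 0.322) and stood above it in siSlc25a26.PE (34.6 ± 0.31 against 27.2 ± 0.95).

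**Figure D1:**
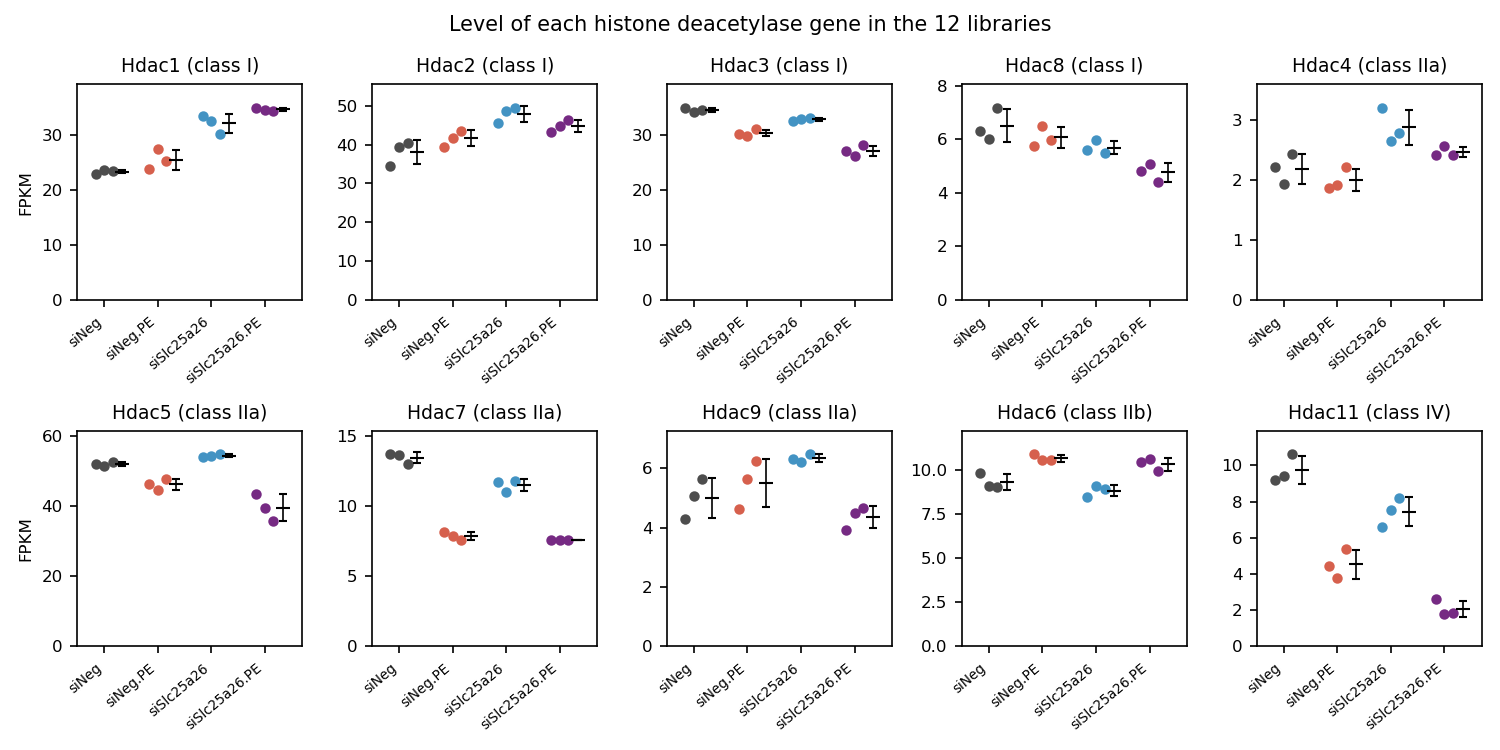
FPKM of each HDAC gene (y axis, from 0) in the 4 groups (x axis), with 1 point per library and the mean ± SD (n = 3) as a bar beside the points. Hdac11 falls from 9.19 to 10.62 in siNeg to 1.79 to 2.6 in siSlc25a26.PE, while Hdac1 runs from 22.92 to 23.6 up to 34.32 to 34.93.

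The summed FPKM of the 10 genes was 194 ± 4.41 in siNeg, 180 ± 5.26 in siNeg.PE, 210 ± 2.04 in siSlc25a26 and 178 ± 2.53 in siSlc25a26.PE (SD, n = 3 each). Class I took 52.8% ± 0.705 of this sum in siNeg, 57.4% ± 1.09 in siNeg.PE, 56.5% ± 0.49 in siSlc25a26 and 62.7% ± 1.82 in siSlc25a26.PE. Class IIa took 37.4% ± 0.521, 34.2% ± 0.694, 35.8% ± 0.574 and 30.3% ± 1.55 in the same order. The class I share of every siSlc25a26.PE library (61% to 64.6%) was above that of every other library, and its class IIa share (28.7% to 31.8%) was below. Hdac6, the class IIb member, took 4.79% ± 0.331 in siNeg, 5.92% ± 0.276 in siNeg.PE, 4.2% ± 0.11 in siSlc25a26 and 5.82% ± 0.17 in siSlc25a26.PE. Hdac11 took 5.01% ± 0.285, 2.51% ± 0.396, 3.54% ± 0.349 and 1.17% ± 0.238. Within class IIa the ratio of Hdac7 to Hdac5 FPKM was 0.258 ± 0.0103 in siNeg and 0.17 ± 0.0103 in siNeg.PE, and within class I the ratio of Hdac1 to Hdac2 was 0.614 ± 0.0447 in siNeg and 0.773 ± 0.0349 in siSlc25a26.PE. These shares describe the libraries and were not tested. They depend on the division by gene length. On counts without it, class I took 35.7% in siNeg, 40.5% in siNeg.PE, 39.6% in siSlc25a26 and 45.9% in siSlc25a26.PE. Class IIa then took 53%, 48.5%, 51.1% and 44.2% in the same order. The FPKM of all genes summed to 551664 to 609551 per library, so the HDAC sums are not scaled to a common total. On log2(FPKM + 1), the median change of all genes tested was -0.125 from siSlc25a26 to siSlc25a26.PE and -0.0324 from siNeg to siNeg.PE. The HDAC sums were not corrected for these shifts.

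**Figure D2:**
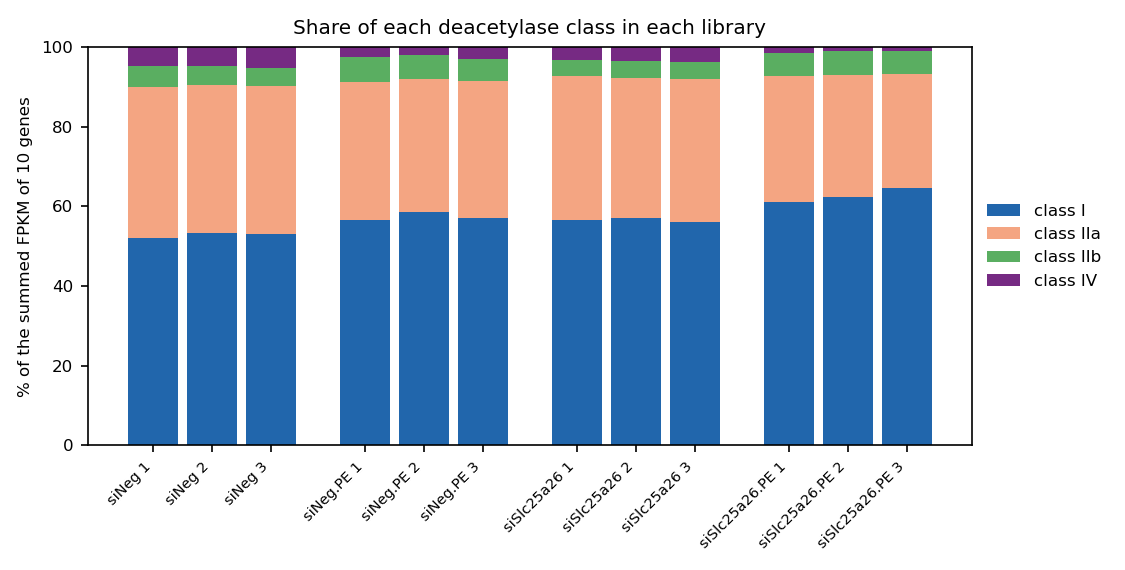
Share of the summed FPKM of the 10 HDAC genes (y axis, %) taken by class I, IIa, IIb and IV in each library (x axis, 3 replicates per group). Class I rises from 52% to 53.3% in siNeg to 61% to 64.6% in siSlc25a26.PE, and class IV shrinks from 4.83% to 5.34% to 1.01% to 1.44%.

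The first comparison asks which HDAC genes respond to PE with the control siRNA. Hdac11 and Hdac7 fell and Hdac6 rose, and the other 7 genes did not pass an adjusted p of 0.05. Hdac11 lay at 22, 22.4 and 25.3 CPM in siNeg and at 11.1, 9.41 and 13 in siNeg.PE. Every siNeg.PE library was below every siNeg library, a 2.09-fold lower level (log2 fold change -1.07, SE 0.13, edgeR adjusted p = 0.00041). Hdac7, a class IIa enzyme known for its part in the vascular endothelium, lay at 82, 82.1 and 78.4 CPM in siNeg and at 54, 51 and 47.8 in siNeg.PE. Its groups did not overlap, and the level was 1.6-fold lower (log2 fold change -0.68, SE 0.06, edgeR adjusted p = 9.81e-05). Fibroblast, smooth muscle and leukocyte marker sums were also lower in siNeg.PE, and cardiomyocyte and cycling-cell sums higher. By gene, 4 of 8 fibroblast markers fell and 2 rose (Pdgfra 0.37 and Dcn 0.27), 5 of 8 smooth muscle markers fell and 2 rose (Cnn1 1.58 and Rgs5 0.745), and 6 of 8 leukocyte markers fell and 0 rose. Of 7 endothelial markers tested, Kdr (-1.08) and Tie1 (-0.69) fell and Tek (0.33) rose. The part of these shifts in the Hdac7 value was not tested. Hdac6, the tubulin deacetylase, lay at 38, 34.9 and 34.9 CPM in siNeg and at 44.4, 42.7 and 41.4 in siNeg.PE, without overlap (log2 fold change 0.24, SE 0.06, edgeR adjusted p = 0.0161).

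Of the 10 HDAC genes, 1 passed as higher against 25.2% of the 13719 genes tested, and 2 passed as lower against 24.3%. With a fold change above 1.5 as well, 0 passed as higher against 12.4%, and 2 as lower against 8.24%. The median log2 fold change was -0.09 over the members and 0.000158 over all genes. Library values on the CPM scale did not overlap, in the higher direction, for 3 members against 29.4% of all genes and, in the lower direction, for 4 against 29.1%. Hdac3, a non-overlapping gene at 53.8, 52.5 and 53.1 CPM in siNeg and 48.8, 48.1 and 48.4 in siNeg.PE, missed the threshold (log2 fold change -0.15, edgeR adjusted p = 0.0511), as did Hdac5 (-0.13, 0.0568), Hdac1 (0.17, 0.0658) and Hdac2 (0.17, 0.0767). Hdac3 and Hdac5 passed on FPKM (limma adjusted p 0.0108 to 0.0185), and Hdac1, Hdac2 and Hdac3 passed with all 12 libraries in 1 fit (edgeR adjusted p 0.0223 to 0.0308). The intervals of Hdac4 (-0.38 to 0.09), Hdac8 (-0.30 to 0.18) and Hdac9 (-0.10 to 0.48) included 0 at 95%. With a block for the replicate number, Hdac1, Hdac2, Hdac3, Hdac5 and Hdac9 passed (edgeR adjusted p 0.00673 to 0.0201). What that number marks is not given. Hdac6 lost its call on log2(FPKM + 1) (0.18, limma adjusted p = 0.0525) and without siNeg replicate 2 (adjusted p = 0.0624) or siNeg.PE replicate 2 (0.0518), and Hdac1 gained a call without siNeg.PE replicate 1 (log2 fold change 0.22, adjusted p = 0.0415).

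**Figure D3:**
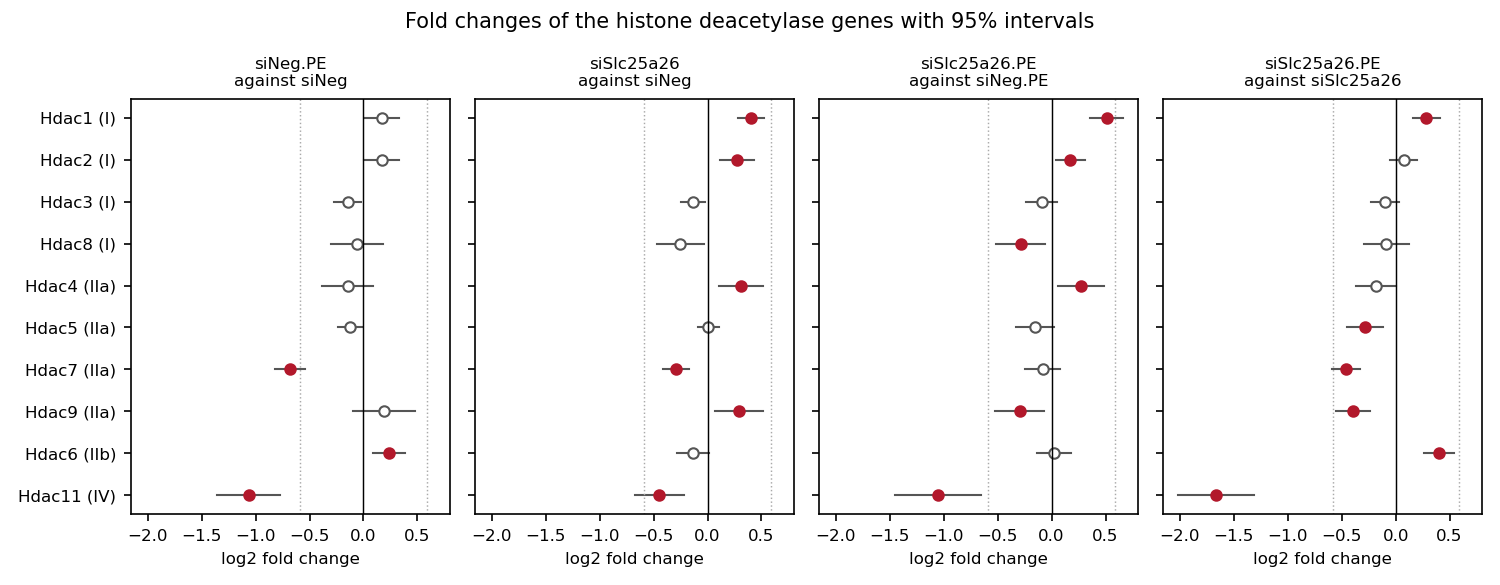
Log2 fold change (x axis) of each HDAC gene (y axis, class in brackets) in the 4 comparisons of 2 groups, with 95% intervals from edgeR; filled points passed an adjusted p of 0.05 and dotted lines mark a fold change of 1.5. Hdac11 lies left of 0 in every panel (-1.07, -0.45, -1.05 and -1.66), and Hdac1 lies right of 0 in every panel, with 3 of its 4 points filled.

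The comparison of siSlc25a26 with siNeg asks what the siRNA changed without PE. It shares the siNeg libraries with the comparison above. Hdac1, Hdac2, Hdac4 and Hdac9 rose, Hdac7 and Hdac11 fell, and the changes were small. Hdac1, a catalytic subunit of NuRD and Sin3, lay at 43.2, 44.4 and 44.1 CPM in siNeg and at 61.5, 59.5 and 56.2 in siSlc25a26. Its lowest siSlc25a26 library was far above its highest siNeg library (1.32-fold, log2 fold change 0.40, SE 0.05, edgeR adjusted p = 0.000471). Hdac2, its close paralog, lay at 70.8, 80.6 and 82.9 CPM against 91.2, 97.2 and 100, again without overlap (log2 fold change 0.28, SE 0.07, edgeR adjusted p = 0.0109). Both genes have near copies in the rat genome: RefSeq lists 18 pseudogenes named for Hdac1 and 1 for Hdac2, none of which is a row of the tables, so reads shared with such copies could enter these values.

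In class IIa, Hdac4 lay at 15.1, 14.7 and 16.5 CPM in siNeg and at 21.1, 18 and 19.4 in siSlc25a26 (log2 fold change 0.31, SE 0.09, edgeR adjusted p = 0.0189). Hdac9 lay at 19.2, 22.7 and 25.3 against 27.9, 27.5 and 28.4 (0.29, SE 0.10, edgeR adjusted p = 0.0377). Both were higher in each siSlc25a26 library than in any siNeg library, and the siNeg values of Hdac9 were the more scattered. Hdac7 lay at 68.8, 64.2 and 68.4 CPM in siSlc25a26, below all siNeg libraries (log2 fold change -0.29, SE 0.05, edgeR adjusted p = 0.00233). Hdac5 was at 161, 161 and 166 CPM against 159, 157 and 161 in siNeg, and its interval ran from -0.09 to 0.11 on the log2 scale. Hdac11 lay at 15.3, 17.5 and 19.3 CPM, all below siNeg (1.36-fold lower, log2 fold change -0.45, SE 0.10, edgeR adjusted p = 0.00703). Values of Hdac3 (-0.13, adjusted p = 0.0553), Hdac8 (-0.25, 0.0572) and Hdac6 (-0.13, 0.132) did not pass.

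Thus 4 of 10 HDAC genes passed as higher, against 23.3% of 13829 genes, and 2 as lower, against 21.7%. With a fold change above 1.5, 0 passed in either direction, against 8.92% higher and 7.2% lower of all genes. The median log2 fold change was -0.06 over the members and 0.01 over all genes. Without overlap between groups, 4 members were higher, against 31.6% of genes, and 5 lower, against 25.3%. Hdac4 lost its call without siNeg replicate 2 (adjusted p = 0.0761), siSlc25a26 replicate 1 (0.0732) or siSlc25a26 replicate 3 (0.0509), and Hdac3 gained one without siNeg replicate 3 (log2 fold change -0.16, adjusted p = 0.0357). With DESeq2's size factors, Hdac3 (adjusted p = 0.0454) and Hdac8 (0.0474) passed as well. Hdac9 lost its call when any library other than siNeg replicate 3 was left out (adjusted p 0.0768 to 0.094, and 0.19 on the log2 scale without siNeg replicate 1). Interferon-responsive genes moved with the same groups, with 9 of 9 tested above siNeg at a median log2 fold change of 6.69. Ifit1, the gene of that list not tested here for low counts, lay at 0.0681 to 0.298 CPM in siSlc25a26 and 0.0369 to 0.218 in siNeg.

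Under PE, the comparison of siSlc25a26.PE with siNeg.PE shares no library with the preceding comparison. Hdac11 fell by 1.05 on the log2 scale and Hdac1 rose by 0.51, and Hdac2, Hdac4, Hdac8 and Hdac9 passed close to the threshold. Hdac11 lay at 6.87, 4.65 and 4.79 CPM in siSlc25a26.PE, each below the lowest siNeg.PE library at 9.41 (2.07-fold lower, SE of the log2 fold change 0.18, edgeR adjusted p = 0.00168). Hdac1 lay at 73.2, 71.1 and 70.2 CPM against 47.1, 54 and 48.5 in siNeg.PE, without overlap (1.42-fold, SE 0.07, edgeR adjusted p = 0.000502). The other class I genes split. Hdac2 lay at 98.4, 100 and 103 CPM against 85.3, 89.6 and 90.8 (log2 fold change 0.17, edgeR adjusted p = 0.0391), and Hdac8, a class I enzyme that deacetylates the cohesin subunit SMC3, at 9.95, 10.1 and 8.81 against 11.3, 12.6 and 11.1 (-0.29, edgeR adjusted p = 0.0497). Hdac3 did not pass, with a log2 interval of -0.24 to 0.05. In class IIa, Hdac4 was higher in each siSlc25a26.PE library, at 16.9, 17.9 and 16.5 CPM against 13.7, 12.9 and 15.5 (log2 fold change 0.27, edgeR adjusted p = 0.0465). Hdac9 lay at 19.5, 21.7 and 22 CPM against 22.4, 26.1 and 28.7, a gap of less than 1 CPM between the nearest libraries (-0.30, edgeR adjusted p = 0.0415). Hdac5 (-0.16), Hdac7 (-0.08) and Hdac6 (0.02) overlapped between the groups, and the Hdac5 libraries of siSlc25a26.PE were spread from 119 to 148 CPM.

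In this comparison 3 members passed as higher and 3 as lower, each against 20.1% of 13671 genes. With a fold change above 1.5, 0 passed as higher, against 7.71%, and 1, Hdac11, as lower, against 8.1%. The median log2 fold change was -0.09 over the members and -0.00284 over all genes. Libraries did not overlap for 3 members in the higher direction, against 26.9% of genes, and for 4 in the lower, against 25.1%. The near-threshold calls depended on single libraries and on the processing. Hdac2 lost its call when any library but siSlc25a26.PE replicate 1 was left out (adjusted p 0.0686 to 0.113), Hdac4 and Hdac8 when any but siNeg.PE replicate 3 was (0.0565 to 0.166 and 0.079 to 0.169), and Hdac9 when any but siNeg.PE replicate 1 was (0.0647 to 0.126). With every library in, Hdac2, Hdac4 and Hdac9 lost their calls on FPKM (limma adjusted p 0.068 to 0.178), Hdac2, Hdac4 and Hdac8 without a count filter (0.0582 to 0.0618), and Hdac4 and Hdac8 with DESeq2 (0.0714 and 0.113). Calls were also gained. On FPKM with pseudocounts of 1 and 0.1, Hdac3 passed as lower (-0.156 and -0.161, limma adjusted p = 0.04 and 0.0414). Hdac5 did so too (-0.225 and -0.23, limma adjusted p = 0.038 and 0.0384). Without siSlc25a26.PE replicate 1, Hdac5 passed in edgeR (-0.235 on the log2 scale, adjusted p = 0.0328). Hdac1 and Hdac11 passed under all 16 alternatives.

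The PE effect within the libraries labelled siSlc25a26 and siSlc25a26.PE was measured next. Hdac11, Hdac7, Hdac9 and Hdac5 fell and Hdac6 and Hdac1 rose. Hdac11 went from 15.3, 17.5 and 19.3 CPM to 6.87, 4.65 and 4.79, without overlap (3.17-fold lower, log2 fold change -1.66, SE 0.16, edgeR adjusted p = 3.3e-05). Of the class IIa genes, 3 of 4 fell, against 26% of the 13776 genes tested. Hdac7 went from 68.8, 64.2 and 68.4 CPM to 50.1, 47.7 and 47.4 (-0.46, edgeR adjusted p = 0.00017), Hdac9 from 27.9, 27.5 and 28.4 to 19.5, 21.7 and 22 (-0.40, edgeR adjusted p = 0.00154), and Hdac5 from 161, 161 and 166 to 148, 132 and 119 (-0.28, edgeR adjusted p = 0.00965). None of these overlapped. The remaining class IIa gene, Hdac4, was lower in each PE library but did not pass (-0.18, edgeR adjusted p = 0.0939). Hdac6 rose from 32, 34.1 and 34.2 CPM to 44.9, 44.9 and 41.5 (log2 fold change 0.40, SE 0.06, edgeR adjusted p = 0.000658). Hdac1 rose from 61.5, 59.5 and 56.2 CPM to 73.2, 71.1 and 70.2 (0.29, SE 0.06, edgeR adjusted p = 0.00227). On the FPKM scale, where the median of all genes shifted to -0.125 (pseudocount 1), Hdac1 was at 0.11 and did not pass (limma adjusted p = 0.102). In the edgeR fit, Hdac2 (0.07), Hdac3 (-0.10) and Hdac8 (-0.09) did not pass. On FPKM with pseudocounts of 1 and 0.1, Hdac3 passed as lower (-0.267 and -0.275, limma adjusted p = 0.00156 for both). Hdac8 passed there as well (-0.214 and -0.25, limma adjusted p = 0.0402 and 0.0392).

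As higher, 2 of 10 members passed, against 26.4% of 13776 genes, and as lower 4, against 26%. With a fold change above 1.5, 0 passed as higher, against 10.1%, and Hdac11 alone passed as lower, against 10.4%. The median log2 fold change was -0.14 over the members and -0.00357 over all genes. In the higher direction 2 members did not overlap between groups, against 29.4% of genes, and in the lower direction 6, against 31.5%. Leaving out any single library ended none of these 6 calls.

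Whether PE acted differently in the siNeg and siSlc25a26 libraries was tested as an interaction over all 12 libraries. Hdac9 was the member that passed. Its PE effect was 0.19 with siNeg, where the groups overlapped, and -0.40 with siSlc25a26, where they did not, a difference of -0.61 on the log2 scale (SE 0.15, edgeR adjusted p = 0.0226). Without siNeg.PE replicate 3, in which Hdac9 reached 28.7 CPM, the difference was -0.51 and did not pass (adjusted p = 0.0567). Hdac11 had a difference of the same size with a larger error (-0.62, SE 0.22, edgeR adjusted p = 0.086), which passed without siSlc25a26.PE replicate 1 (-0.82, adjusted p = 0.0188). Hdac5 did not pass (-0.18, 0.239) but did without that library (-0.26, adjusted p = 0.0378). On FPKM with every library in, Hdac5 passed (-0.29, limma adjusted p 0.0353 and 0.0386 with pseudocounts of 1 and 0.1), and Hdac11 passed with a pseudocount of 0.1 (-0.70, 0.0493). For Hdac7 the difference was 0.19 (edgeR adjusted p = 0.148). The other 6 members had differences between -0.12 and 0.14, with adjusted p from 0.329 to 0.861. Of the 14097 genes tested, 5.48% passed as higher and 5.73% as lower, against 0 and 1 of the members. With a difference above 1.5-fold these shares were 2.16% and 3.34%, against 0 and 1 of the members. The median was -0.05 over both the members (-0.0504) and all genes (-0.0452). Since the siSlc25a26.PE libraries did not have lower Slc25a26 RNA than siNeg.PE, the labelled knockdown and other differences between these libraries cannot be told apart.

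**Figure D4:**
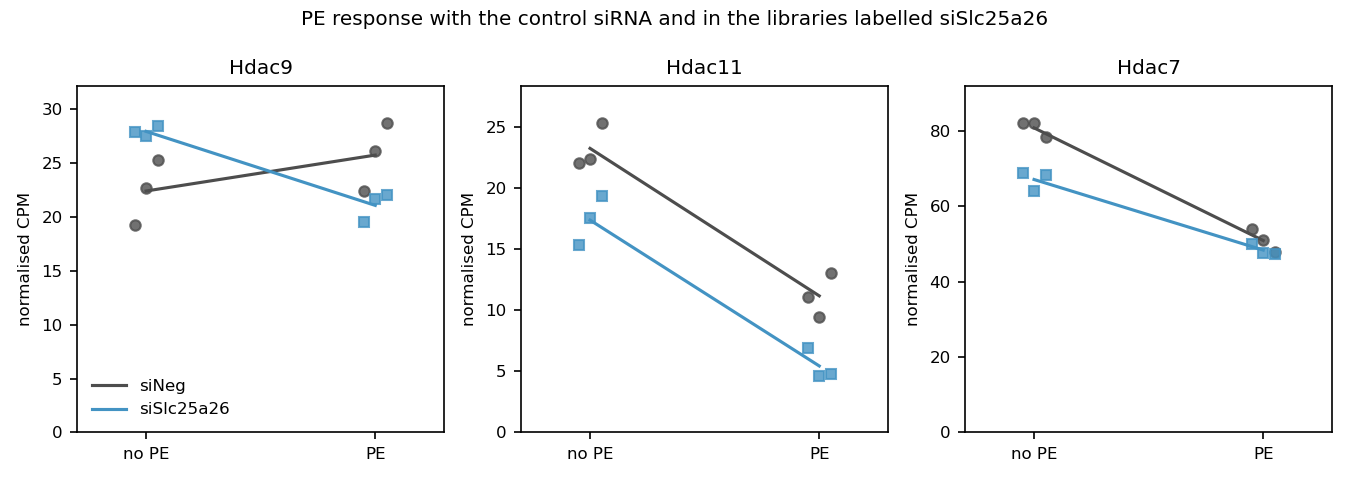
Normalised CPM (y axis, from 0) of Hdac9, Hdac11 and Hdac7 without and with PE (x axis) for libraries transfected with siNeg (circles) or labelled siSlc25a26 (squares); lines join group means (n = 3). The Hdac9 lines cross, from 22.4 to 25.7 with siNeg and from 27.9 to 21.1 with siSlc25a26, while both lines fall for Hdac11 and Hdac7.

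The partners of class I HDACs were read from lists of complex subunits. Every count of list genes is read against the share of all genes that passed in the same comparison. These shares were 25.2% higher and 24.3% lower for PE in siNeg, 23.3% and 21.7% for siSlc25a26 against siNeg, 20.1% and 20.1% for siSlc25a26.PE against siNeg.PE, and 26.4% and 26% for PE in siSlc25a26. Since siSlc25a26.PE had no lower Slc25a26 RNA than siNeg.PE, higher and lower in the third of these comparisons describe the labelled libraries and are not credited to the siRNA. Of 11 NuRD subunits, 6 passed as higher and 0 as lower in siSlc25a26.PE against siNeg.PE (20.1% of all genes in each direction), with a median log2 fold change of 0.20 against -0.00284 for all genes. The 6 were the remodellers Chd3 (0.29) and Chd4 (0.20), Mta1 (0.21), the methyl-DNA binder Mbd2 (0.36), Gatad2a (0.405) and Gatad2b (0.29). Without PE, 3 of the 11 rose and 0 fell (23.3% and 21.7% of all genes), namely Mbd2 (0.36), Gatad2a (0.36) and Gatad2b (0.22). PE with siNeg raised 1 subunit (25.2% of all genes), the histone-binding Rbbp7 (0.39), and lowered 3 (24.3%), Mta1 (-0.37), Mta2 (-0.27) and Mta3 (-0.22). With siSlc25a26, PE raised 3 and lowered 4, against 26.4% and 26% of all genes. Of 13 Sin3 subunits, 5 rose and 0 fell with siSlc25a26 without PE (23.3% and 21.7% of all genes), at a median of 0.31, with Arid4b at 1.05 and Arid4a at 0.70 past a fold of 1.5, and 3 were higher and 0 lower in siSlc25a26.PE than in siNeg.PE, led by Sap18 (0.86), where 3 of 13 lies near the 20.1% of all genes. PE raised 3 and lowered 2 of them with siNeg (Arid4b 1.26 and Arid4a 0.79 past a fold of 1.5), and raised 1, Sap18 (0.62), and lowered 5 with siSlc25a26.

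Of 9 CoREST subunits, 1 rose and 2 fell with PE in siNeg (25.2% and 24.3% of all genes), and 2 rose and 1 fell with siSlc25a26 without PE (23.3% and 21.7%), where Phf21a (0.605) passed a fold of 1.5. In siSlc25a26.PE against siNeg.PE, 1 was higher and 1 lower (20.1% each), and PE with siSlc25a26 raised 1 and lowered 3 (26.4% and 26%), with Zmym3 at -0.59. All 3 tested MiDAC subunits, against 24.3% of all genes, fell with PE in siNeg (Dnttip1 -0.22, Elmsan1 -0.41 and Trerf1 -0.50). With siSlc25a26, PE lowered 2 of the 3 (26% of all genes). Elmsan1 (0.17) was the 1 that rose with siSlc25a26 without PE, and 0 passed in siSlc25a26.PE against siNeg.PE.

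Among the transcription factors that bind class IIa HDACs, 4 of 9 tested rose and 2 fell with PE in siNeg, against 25.2% and 24.3% of all genes. Runx2 (1.37), Camta1 (0.97) and the SRF coactivator Myocd (0.86) passed a fold of 1.5, and Mef2c rose by 0.54 and Mef2d fell by 0.205 on the log2 scale, while Mef2a was at 0.32 (edgeR adjusted p = 0.125). With siSlc25a26, PE raised 5 and lowered 2 (26.4% and 26% of all genes), led by Camta1 (1.54), Runx2 (1.23), Myocd (1.19) and Srf (0.66), with Mef2c at 0.25, Mef2d at -0.28 and Mef2a at -0.13 (edgeR adjusted p = 0.102). The siRNA raised 2, Mef2c (0.30) and Myocd (0.34), and lowered 0 without PE (23.3% and 21.7%). Camta1 (0.72), Myocd (0.66) and Srf (0.28) were higher and Mef2a (-0.31) lower in siSlc25a26.PE than in siNeg.PE (20.1% each), with Mef2c at 0.01 and Mef2d at -0.08 not passing. Mef2b was in the tables but not tested in these comparisons for low counts.

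Of 15 tested kinases of the class IIa HDACs, 4 rose and 4 fell with PE in siNeg, about the shares of all genes (25.2% and 24.3%). Sik1, a salt-inducible kinase that phosphorylates class IIa HDACs, rose by 1.92 and Camk1g by 0.90. Of the protein kinase D genes, Prkd3 rose by 0.49, Prkd2 fell by 0.47 and Prkd1 was at -0.03 (edgeR adjusted p = 0.781). Of the CaMKII genes, Camk2a fell by 0.35, while Camk2d (0.21), Camk2b (0.18) and Camk2g (-0.12) did not pass. With siSlc25a26 and no PE, 7 rose and 2 fell (23.3% and 21.7% of all genes), with Prkd2 at 0.84, Prkd1 at -0.38, Camk2b at -0.80 and Camk2d at 0.36, while Prkd3 (0.30), Camk2a (0.13) and Camk2g (-0.02) did not pass. In siSlc25a26.PE against siNeg.PE, 4 were higher and 5 lower (20.1% of all genes each), with Camk1d at -1.39, Sik1 at 0.97, Prkd2 at 0.80, Prkd1 at -0.55, Camk2b at -0.38 and Camk2d at -0.22, while Prkd3 (-0.115), Camk2a (-0.05) and Camk2g (-0.00287) did not pass. With siSlc25a26, PE raised 3 and lowered 5 (26.4% and 26% of all genes): Sik1 rose by 2.31 and Camk2b by 0.61, and Camk1d (-0.93), Camk2a (-0.525), Prkd2 (-0.51) and Camk2d (-0.37) fell. In that comparison Prkd1 (-0.20), Prkd3 (0.08) and Camk2g (-0.10) did not pass. The PE effect differed between the siRNAs for 3 kinases, against 5.73% of all genes in that direction, each with a lower effect in siSlc25a26: Camk1d (-0.93, edgeR adjusted p = 0.0439), Camk2d (-0.60, 0.0193) and Grk5 (-0.36, 0.0407).

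**Figure D5:**
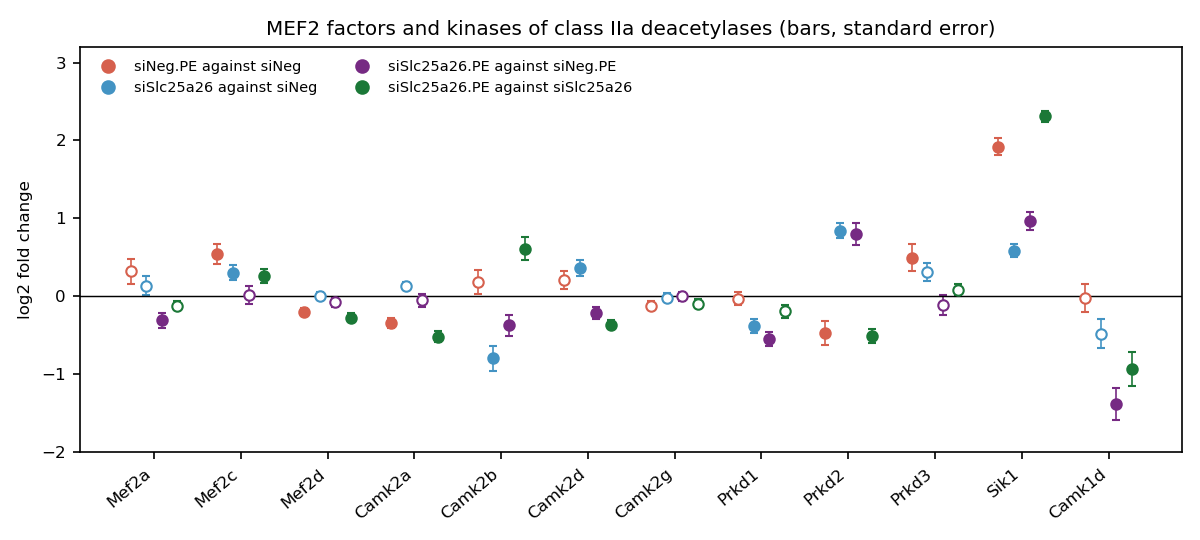
Log2 fold change ± SE (y axis) of MEF2 factors and of kinases that phosphorylate class IIa HDACs (x axis) in the 4 comparisons of 2 groups; filled points passed an adjusted p of 0.05. Sik1 is filled and above 0 in all comparisons (1.92, 0.58, 0.97 and 2.31), while Prkd2 is above 0 in siSlc25a26 and siSlc25a26.PE against their siNeg comparators (0.84 and 0.80) and below 0 with PE (-0.47 and -0.51).

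The 14-3-3 genes, whose proteins hold phosphorylated class IIa HDACs in the cytoplasm, were taken with the nuclear exporter Xpo1. Of 7 tested, PE raised 4 and lowered 0 with siNeg (25.2% and 24.3% of all genes), with Xpo1 at 0.685, and raised 5 and lowered 1 with siSlc25a26 (26.4% and 26%). The siRNA raised 2 and lowered 2 without PE (23.3% and 21.7%), and in siSlc25a26.PE against siNeg.PE 2 were higher and 1 lower (20.1% each). Of 8 Hdac6 partners and tubulin acetylation genes, PE raised 4 and lowered 1 with siNeg, against the same shares, among them the chaperone Hsp90aa1 (1.04), Plaa (0.81) and the microtubule protein Tppp (0.70), and raised 6 and lowered 2 with siSlc25a26, led by Tppp (1.49) and Plaa (0.65). The siRNA raised 4 and lowered 0 of them without PE, with Hsp90aa1 at 0.60, and 2 were higher and 1 lower in siSlc25a26.PE than in siNeg.PE, with Tppp at 0.83. Atat1, the tubulin acetyltransferase that opposes Hdac6, was at -0.07 with PE in siNeg and at -0.32 in siSlc25a26.PE against siNeg.PE (edgeR adjusted p = 0.0108).

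The enzymes that add acetyl groups and the second deacetylase family were also read. Of 10 histone acetyltransferases, PE in siNeg raised 2 and lowered 2, near the 25.2% and 24.3% of all genes, with Hat1, which acetylates new histone H4, at 0.905. With siSlc25a26, PE raised 1, Hat1 (0.70), and lowered 2 (26.4% and 26%). The siRNA raised 4 and lowered 0 without PE (23.3% and 21.7%), with Kat2b (PCAF) at 0.78, and 3 were higher and 1 lower in siSlc25a26.PE than in siNeg.PE (20.1% each). The 7 sirtuins, NAD-dependent deacetylases, held 0 risen and 3 fallen genes with PE in siNeg, and 0 and 4 with siSlc25a26, where Sirt4 was at -0.70. The siRNA raised 2 and lowered 2 of them without PE, and 0 were higher and 1, Sirt2 (-0.37), lower in siSlc25a26.PE than in siNeg.PE. The shares of all genes just given hold for the sirtuins and BET genes too. Of 3 tested BET genes, readers of acetylated histones, PE lowered 2 with siNeg and 3 with siSlc25a26, 2 rose with siSlc25a26 without PE, and 2 were higher in siSlc25a26.PE than in siNeg.PE.

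The fetal and hypertrophy readouts show the state in which these levels were measured. PE in siNeg raised 5 of 6, against 25.2% of all genes, Nppb (5.37), Nppa (4.63), Acta1 (3.18), Rcan1 (1.33) and Myh7 (0.88), and lowered Myh6 (-0.48). With siSlc25a26, PE raised 5, Nppb (5.32), Acta1 (5.15), Nppa (4.51), Rcan1 (1.84) and Myh7 (1.00), with Myh6 at -0.12 (edgeR adjusted p = 0.316). The siRNA without PE raised Nppb (1.97), Nppa (1.14), Rcan1 (0.36) and Myh7 (0.31) and lowered Myh6 (-0.66), with Acta1 at -0.52 (edgeR adjusted p = 0.0802). In siSlc25a26.PE against siNeg.PE, Nppb (1.91), Acta1 (1.44), Nppa (1.02), Rcan1 (0.87) and Myh7 (0.42) were higher and Myh6 (-0.31) was lower. Interferon-responsive genes, as named by the same rule, were led by Mx1 (8.44) and Ifit3 (8.20) with the siRNA without PE and by Ifit3 (7.08) and Mx1 (7.06) in siSlc25a26.PE against siNeg.PE. With PE in siSlc25a26, 9 of the 10 fell, among them Rsad2 (-1.35), and 1, Ifit1 (2.27), rose. The median log2 fold change there was -0.80. With PE in siNeg, 3 of the 10 fell, among them Irf7 (-1.26), and 1, Ifit1 (2.64), rose, at a median of -0.446. Ifit1 was scarce, with no library above 30.12 counts, so its rises rest on few reads.

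The HDAC genes with the widest range of group means on the log2 CPM scale were Hdac11 (2.11), Hdac7 (0.74) and Hdac1 (0.70). Hdac3 had the narrowest (0.22). Over the 12 libraries, the log2 CPM of Hdac11 was most like that of Ift46 (Pearson r = 0.993), Mgll (0.993) and Adra1b (0.992), the last of which encodes an α1-adrenergic receptor. That of Hdac7 was most like Sumo3 (0.993), Ephb2 (0.987) and Vegfb (0.985), and that of Hdac1 most like Anxa7 (0.986), Hnrnpf (0.98) and Glyr1 (0.977). Among 14087 other genes, 5.03% had an r above 0.9 with Hdac11, 4.13% with Hdac7 and 2.43% with Hdac1. Among the members themselves, Hdac11 had an r of 0.912 with Hdac3, 0.892 with Hdac5 and 0.881 with Hdac7, and Hdac1 had an r of 0.852 with Hdac2 and -0.855 with Hdac3. These points share the 4 group means, so the values describe shared patterns over the groups and are given with no p. Hdac10, the other class IIb gene, lay between 0.438 and 2.05 CPM and was outside the genes described here. It passed as higher in siSlc25a26.PE against siNeg.PE (log2 fold change 1.04) and in no other comparison. Its counts there were low, at 43.51 to 48.24 against 11.08 to 31.02.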

How the data were processed

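For 12 libraries the authors deposited each gene's estimated counts of reads and, in a separate table, FPKM values, in which they scaled fragments by gene length and library total. Per the labels, the submitters' processing notes name HISAT, Bowtie2 and the build Rnor_6.0. Their roles, the counting program and the strandedness are not given in the sources used here, so reads of overlapping and antisense genes may be shared. Between 20.8% and 21.9% of the deposited counts per library were not whole, and counts were rounded before testing, where the planned design named counts rounded if estimated. Among the members, Hdac7 had non-whole values in 12 libraries, Hdac8 in 8, Hdac6 in 6 and Hdac1 in 2. NCBI Gene identifiers and symbols both matched RefSeq (GRCr8) for 9 of 10 members, and for Hdac6 the symbol alone matched.

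Genes kept by filterByExpr were tested with edgeR 4.0.16 (TMM, quasi-likelihood) in R 4.3.3, with Benjamini-Hochberg adjustment over all genes tested. Only the groups compared entered each fit, and the interaction used all 12 libraries. Calls used an adjusted p under 0.05, and in a second count also a fold change above 1.5, the thresholds of the study's methods. Standard errors came from the F statistic and 95% intervals from a t distribution with edgeR's degrees of freedom. The procedure was tested on simulated data. Alternatives were DESeq2 1.42.0, its size factors in edgeR, limma-voom, limma (3.58.1) on log2 FPKM with pseudocounts of 1 and 0.1, a fit to unfiltered genes, at least 10 counts in each library, a block for the replicate number, a single fit of all 12 libraries, TMM without the 10 most counted genes, and leaving out each library. The 10 most counted genes took 6.12% to 10% of counts. No 2 replicates agreed within sampling noise. The labels give no batch.

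Members, lists and tests were chosen with earlier results of these data known. The genes named are the members, Slc25a26, every MEF2, CaMKII and protein kinase D gene tested, the hypertrophy readouts, up to 2 genes per list and comparison with the largest change past both thresholds, and the 3 genes most like each of the 3 most variable members. Members of the NuRD, MiDAC, sirtuin, MEF2-type and kinase lists named beyond this rule were chosen after their values were seen. The subunits of the Hdac3 corepressor complex are not reported here.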

Additional observations from a re-analysis of the deposited data

Results flagged for a closer look

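The PE effect on Hdac9, a class IIa deacetylase, differed between the siNeg libraries and those labelled siSlc25a26. The difference was -0.606 on the log2 scale (edgeR interaction test over 12 libraries, adjusted p = 0.0226). It passed in 20 of 21 alternatives, with values from -0.705 to -0.507, and in 11 of the 12 fits that left out a library. The exception was the fit without siNeg.PE replicate 3 (-0.51, adjusted p = 0.0567).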

How the results depend on the processing

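No called value of an HDAC gene changed direction under any alternative. With PE in siNeg, 3 members passed, against 5 on log2(FPKM + 0.1), 6 with all 12 libraries in 1 fit, 8 with the replicate block and 2 to 4 when a library was left out. Over all 13719 genes, 6785 passed, 6733 on log2(FPKM + 0.1), 7286 in the single fit and 8462 with the block. With siSlc25a26 without PE, 6 passed, 8 with DESeq2's size factors and 4 to 7 with a library left out. In siSlc25a26.PE against siNeg.PE, 6 passed, 3 without a filter on low counts and 2 to 4 with a library left out (3 without siNeg.PE replicate 1, 2 without siNeg.PE replicate 2, siSlc25a26.PE replicate 2 or siSlc25a26.PE replicate 3). With PE in siSlc25a26, 6 passed in every such fit. For the difference between PE effects, 1 passed, 2 on log2(FPKM + 1), 3 on log2(FPKM + 0.1) and 0 to 3 with a library left out (0 without siNeg.PE replicate 3, 3 without siSlc25a26.PE replicate 1). In that interaction the replicate block called 1 member as well.

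Whether a replicate number marks a shared culture is not given. Deviations of same-numbered libraries correlated at -0.126 to 0.164 over 14097 genes, and in no comparison did every pair exceed 0.1. Such weak correlations cannot exclude a pairing. Over all genes, the block raised calls from 6785 to 8462 for PE in siNeg. It raised them from 5488 to 6659 for siSlc25a26.PE against siNeg.PE and from 1581 to 2271 for the difference. Calls fell from 6221 to 6021 for siSlc25a26 against siNeg and from 7219 to 6326 for PE in siSlc25a26. Blocking changed the count of called members in 1 comparison, PE in siNeg, where Hdac1, Hdac2, Hdac3, Hdac5 and Hdac9 gained calls (adjusted p 0.00673 to 0.0201).

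Uncalled values that changed sign were Hdac5 with siSlc25a26 without PE (-0.00414 with DESeq2's size factors, -0.00416 with DESeq2, -0.0126 to 0.0163 with a library left out), Hdac8 with PE in siNeg (-0.118 to 0.0143 with a library left out), Hdac6 in siSlc25a26.PE against siNeg.PE (-0.0413 and -0.0449 on FPKM with pseudocounts of 1 and 0.1, -0.0229 to 0.0705 with a library left out) and Hdac2 with PE in siSlc25a26 (-0.0974 and -0.0993 on FPKM). For the difference between PE effects they were Hdac1 (-0.0122 and -0.0136 on FPKM), Hdac3 (-0.0838 and -0.0868 on FPKM), Hdac8 (-0.128 to 0.0118) and Hdac4 (-0.111 to 0.0348) with a library left out. The cause was not tested.

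FPKM moved the median of all genes to -0.125 and -0.171 for PE in siSlc25a26, where 26.3% of calls were then higher against 50.3%, and to -0.109 and -0.143 for the difference, where 24.1% and 22.7% were higher against 48.9%. In siSlc25a26.PE against siNeg.PE the share was 38.3% and 38.2% against 50%. The fewest counts were those of Hdac11, 117 in the lowest library, and 3 libraries per group limit all tests.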
